A study of Mus musculus with 8 samples.

Results

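The genes described here encode the mitochondrial enzymes that burn fatty acids and break down the branched-chain amino acids leucine, isoleucine and valine. The list holds 41 genes and was selected on pathway membership, with no expression value in its rule, but it was proposed with the differences between the groups of these data already known. All 41 were found in the deposited table of 23358 gene rows, and 40 of them reached the mean of 1 RPKM over all samples that was asked of a gene before testing. RPKM, the authors' unit, scales a gene's reads by the length of its model and by the size of the library. The member below that level was Cpt1b. Because of how the list was proposed, the group values below describe these members and are no independent evidence of a direction.

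The tissue was the outflow vein of an arteriovenous fistula, a surgical join between the carotid artery and the jugular vein of the kind used as access for haemodialysis. Every sample came from C57BL6J mice that carried a chronic kidney disease model for 28 days before the fistula was made, and every vein was collected 3 days after it. The MSC group (4 samples) received 250000 mesenchymal stem cells from a same-sex C57 donor on the vein's outer coat, the adventitia, and the vehicle group (4 samples) received vehicle there. Whether a sample is 1 animal is not in the labels, so the tests measure the spread between samples, and RNA of the donor cells cannot be told apart from that of the host. In bulk tissue, fewer cells of a type and less RNA per cell cannot be told apart either.

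Mitochondrial beta-oxidation removes carbon units from an acyl-CoA in a repeating cycle of dehydrogenation, hydration, a further oxidation and thiolysis. Long-chain acyl groups enter the matrix bound to carnitine, and the electrons taken by the acyl-CoA dehydrogenases pass through the electron transfer flavoprotein to the ubiquinone pool. Branched-chain amino acids are first transaminated, then decarboxylated by the branched-chain keto acid dehydrogenase, a complex that a kinase switches off and a phosphatase switches on. From there each amino acid follows its own arm to acetyl-CoA, acetoacetate or propionyl-CoA. Adipose tissue, muscle, liver and kidney are known for high use of these routes, and branched-chain breakdown increases as fat cells mature.

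The reads that the RPKM steps give back came to between 26.9 and 38.2 mega-reads per sample. Cpt1b rested on 19 to 54 reads per sample, and no other member had fewer than 294 in any sample. Summed RPKM of 8 endothelial markers ran from 363 to 595 RPKM in MSC veins and 475 to 591 RPKM in vehicle veins, and that of 8 smooth muscle markers from 161 to 283 RPKM in MSC veins and 132 to 290.0 RPKM in vehicle veins, so vessel markers were present in every sample. Markers of neighbouring tissues were present too. The sum of 15 adipocyte markers was 592, 1580.0, 2179 and 527 RPKM in MSC veins, against 3675, 3883, 3802 and 5233 RPKM in vehicle veins. The sum of 20 skeletal muscle markers was 979.6, 941, 910.1 and 25.7 RPKM in MSC veins, against 713, 92.8, 17.2 and 170.2 RPKM in vehicle veins. The adipocyte sum was below every vehicle sample in all 4 MSC samples, whereas the muscle sum overlapped between groups, with MSC 4 at the level of the low vehicle samples.

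Across the module, 39 of the 40 members tested had a lower mean in MSC veins on the log2(RPKM + 1) scale, as did 40.5% of all 12129 genes tested. The median log2 fold change of MSC over vehicle was -0.43 over the members and 0.04 over all genes tested. The summed level of all 41 members averaged 741 ± 113 RPKM in MSC veins, against 1012 ± 75.1 RPKM across vehicle veins (SD, n = 4 each). By sample this sum was 683, 757, 892 and 633 RPKM in MSC veins, against 913, 1076, 994 and 1064 RPKM in vehicle veins. All 4 MSC sums lay below the lowest vehicle sum, and MSC 3 came closest to it. In 17 members all 4 MSC samples lay below all 4 vehicle samples, a pattern shown by 4.17% of all genes tested. No member lay wholly above, which 5.61% of all genes did. In limma 1 member passed an adjusted p of 0.05 over all genes, Dbt, which was lower in MSC veins, against 0.206% of all genes called lower and 0.0247% called higher. At an unadjusted p under 0.05, 29 members were lower and none higher, with 6.36% of all genes lower and 10.1% higher at that level. Nothing is read from these shares, since the contrast was known when the list was proposed.

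**Figure D1:**
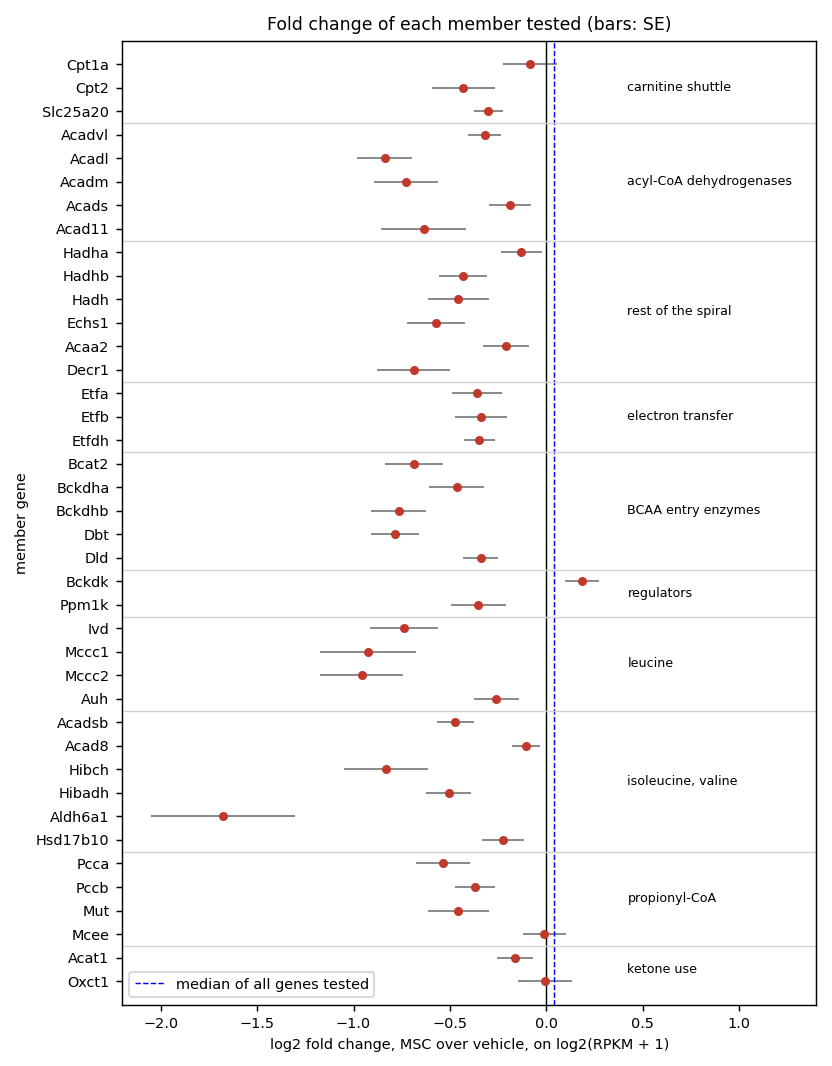
Log2 fold change of MSC over vehicle for the 40 members tested, on the log2(RPKM + 1) scale, by pathway step from the carnitine shuttle at the top to ketone body use at the bottom; bars are limma's SE and the dashed line is the median of all 12129 genes tested (0.04). Aldh6a1 lies farthest left at -1.68, and Bckdk is the 1 member right of 0, at 0.19.

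The carnitine shuttle carries long-chain acyl groups into the matrix. Slc25a20, the carnitine-acylcarnitine translocase of the inner membrane, was at 13.8, 14.3, 15.1 and 12.8 RPKM in MSC veins, against 17.4, 16.8, 17.1 and 18.6 RPKM in vehicle veins. Its groups did not overlap (log2 fold change -0.30, SE 0.08, limma adjusted p = 0.115). Cpt2, which moves the acyl group back to CoA on the matrix side, was at 10.3, 12.2, 14.0 and 8.57 RPKM in MSC veins, against 11.6, 16.0, 17.0 and 17.2 RPKM in vehicle veins. Vehicle 1 lay below MSC 2 and MSC 3, so the groups overlapped, and the log2 fold change was -0.43 (SE 0.16, limma adjusted p = 0.239).

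The entry step of the shuttle is carried by Cpt1 isoforms that are known to differ by tissue, Cpt1a in liver and most cells and Cpt1b in muscle and brown fat. Cpt1a averaged 27.6 ± 2.77 RPKM in MSC veins, against 29.7 ± 5.99 RPKM across vehicle veins (SD, n = 4 each), with a log2 fold change of -0.09 (SE 0.14), smaller than its error. Cpt1b was at 0.271, 0.186, 0.351 and 0.20 RPKM in MSC veins, against 0.322, 0.163, 0.149 and 0.229 RPKM in vehicle veins. Its groups overlapped, and it was the lowest member in every sample, also in those rich in skeletal muscle markers. Per kilobase, Cpt1a was thus the far more abundant of the pair in these veins.

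Acyl-CoA dehydrogenases start each round of the cycle and are known by the chain length they prefer. Acadl, for long chains in the mouse, was at 30.4, 35.2, 42.6 and 28.1 RPKM in MSC veins, against 53.0, 63.2, 58.0 and 71.1 RPKM in vehicle veins. MSC and vehicle samples were apart, and MSC veins held 55.5% of the vehicle mean (log2 fold change -0.84, SE 0.14, limma adjusted p = 0.0535, just short of the threshold). Acadm, for medium chains, was at 21.3, 26.6, 36.3 and 20.4 RPKM in MSC veins, against 39.6, 40.4, 45 and 46.5 RPKM in vehicle veins. MSC 1 and MSC 4 were lowest and MSC 3 was nearest to the vehicle samples, without overlap (log2 fold change -0.73, SE 0.17, limma adjusted p = 0.0964). Acadvl, the very-long-chain enzyme of the inner membrane, averaged 28.8 ± 2.77 RPKM in MSC veins, against 36.1 ± 1.31 RPKM across vehicle veins (SD, n = 4 each), also apart, with a log2 fold change of -0.32. Acad11, which acts on very long chains, averaged 5.64 RPKM in MSC veins, against 9.23 RPKM in vehicle veins with overlapping groups (log2 fold change -0.64), and Acads, for short chains, averaged 9.72 RPKM in MSC veins, against 11.2 RPKM in vehicle veins, also overlapping (log2 fold change -0.19).

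The start of Acadm is shown because genes of this pathway are known targets of nuclear receptors, a class of transcription factors of which many bind the half-site AGGTCA. RefSeq windows from 250 bases before to 50 after the start (GRCm38.p6) were matched by symbol for 35 of the 41 members, 39 windows in all, and none was matched for Cpt1b, Acaa2, Decr1, Dbt, Mut and Acat1. On either strand, AGGTCA was in 10 of the 39 windows (25.6%) and in 16.3% of the 32851 windows of all genes. The longer strings AGGTCANAGGTCA and TNAAGGTCA, both of which contain the half-site, were in 0 of the 39 windows and in 0.0396% and 1.28% of all windows. The 9 members with the half-site were Acadm, Acadvl, Aldh6a1, Bckdhb, Cpt1a, Echs1, Hibadh, Pcca and Ppm1k. Such matches describe letters and not binding. In the Acadm window and in that of Bckdhb, a keto acid dehydrogenase subunit described further on, capitals mark the half-site or its reverse complement TGACCT, and the first 250 bases precede the start.
Acadm, chr3:153944594-153944893, minus strand: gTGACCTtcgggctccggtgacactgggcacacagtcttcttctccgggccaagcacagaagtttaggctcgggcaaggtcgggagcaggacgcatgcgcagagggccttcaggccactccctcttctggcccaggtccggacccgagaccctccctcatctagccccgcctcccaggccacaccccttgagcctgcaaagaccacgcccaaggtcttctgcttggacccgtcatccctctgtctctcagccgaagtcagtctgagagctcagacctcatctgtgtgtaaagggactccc
Bckdhb, chr9:83924887-83925186, plus strand: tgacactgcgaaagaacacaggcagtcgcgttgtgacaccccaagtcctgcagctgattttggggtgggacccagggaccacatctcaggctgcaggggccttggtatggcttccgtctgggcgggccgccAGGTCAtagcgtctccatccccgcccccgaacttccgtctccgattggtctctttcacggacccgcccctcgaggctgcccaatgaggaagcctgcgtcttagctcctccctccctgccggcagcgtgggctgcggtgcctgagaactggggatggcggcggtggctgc

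The rest of the cycle hydrates, oxidises and cleaves the chain. Echs1, the enoyl-CoA hydratase for short chains, was at 26.4, 31.0, 36.0 and 20.9 RPKM in MSC veins, against 39.5, 43.5, 39.5 and 46.7 RPKM in vehicle veins. No MSC sample reached the vehicle range, and MSC 4 was lowest (log2 fold change -0.57, SE 0.15, limma adjusted p = 0.126). Decr1, the reductase needed for unsaturated fatty acids, was at 10.7, 12.7, 15.7 and 9.0 RPKM in MSC veins, against 14.2, 20.9, 20.2 and 24.4 RPKM in vehicle veins. Vehicle 1 lay below MSC 3, and the log2 fold change was -0.69 (SE 0.19, limma adjusted p = 0.135). Hadh, the hydroxyacyl-CoA dehydrogenase for shorter chains, averaged 23.1 ± 5.95 RPKM in MSC veins, against 31.4 ± 2.47 RPKM across vehicle veins (SD, n = 4 each), and MSC 3 lay within the vehicle range (log2 fold change -0.46). Acaa2, the matrix thiolase, averaged 28.4 RPKM in MSC veins, against 32.9 RPKM in vehicle veins and overlapped (log2 fold change -0.21).

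Hadha and Hadhb encode the alpha and beta subunits of the trifunctional protein, which carries out the last steps for long chains. They were singled out after their values were seen, because the ratio between these subunits of 1 complex did not overlap between groups. Hadhb was at 36.8, 38.1, 49.2 and 31.9 RPKM in MSC veins, against 48.2, 54.6, 54.7 and 52.1 RPKM in vehicle veins. Only MSC 3 entered the vehicle range (log2 fold change -0.43, SE 0.13, limma adjusted p = 0.149). Hadha was at 27.8, 28.3, 32.2 and 26.2 RPKM in MSC veins, against 26.2, 32.6, 34.6 and 32.6 RPKM in vehicle veins. Its groups overlapped widely, with vehicle 1 the lowest of the 8 samples (log2 fold change -0.13, SE 0.11). The ratio of Hadha to Hadhb RPKM within a sample was 0.755, 0.742, 0.654 and 0.822 in MSC veins, against 0.543, 0.597, 0.632 and 0.625 in vehicle veins. The groups did not overlap in this ratio, which averaged 0.743 ± 0.0691 in MSC veins, against 0.599 ± 0.0404 across vehicle veins (SD, n = 4 each) and was not tested. Nor did they overlap in the ratio of Hadha to Acadl, a gene of another enzyme, which averaged 0.852 in MSC veins, against 0.516 in vehicle veins. The split is thus not particular to the subunits of 1 complex. Exons of Hadha overlap Garem2 on the opposite strand, and no use of strand is stated, so reads of Garem2 could count towards Hadha.

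These subunit genes lie head to head on chromosome 5, with RefSeq starts 273 bases apart, and their start windows share 228 bases. The Hadhb window of GRCm38.p6 is shown with the part it shares with the Hadha window in capitals.
Hadhb, chr5:30155003-30155302, plus strand: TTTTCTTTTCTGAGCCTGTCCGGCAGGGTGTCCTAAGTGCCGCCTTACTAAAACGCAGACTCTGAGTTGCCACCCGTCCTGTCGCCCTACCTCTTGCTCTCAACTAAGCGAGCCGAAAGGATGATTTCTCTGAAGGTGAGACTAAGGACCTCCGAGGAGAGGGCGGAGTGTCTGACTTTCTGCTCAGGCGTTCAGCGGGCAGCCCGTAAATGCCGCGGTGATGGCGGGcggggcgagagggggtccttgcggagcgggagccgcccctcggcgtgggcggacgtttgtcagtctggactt

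Electrons from the dehydrogenases are collected by the electron transfer flavoprotein, encoded by Etfa and Etfb, and handed on by its oxidoreductase, encoded by Etfdh. Etfdh was at 16.5, 16.1, 18.5 and 15.4 RPKM in MSC veins, against 20.3, 22.2, 20.9 and 22.2 RPKM in vehicle veins. Here the groups were apart, with all 4 samples of each close together (log2 fold change -0.35, SE 0.08, limma adjusted p = 0.0964). Etfa was at 45.9, 53.2, 66.3 and 43.3 RPKM in MSC veins, against 61.6, 71.2, 67.8 and 64.9 RPKM in vehicle veins. MSC 3 reached the vehicle range and the other MSC samples did not (log2 fold change -0.36, SE 0.13, limma adjusted p = 0.225). Etfb averaged 50.6 RPKM in MSC veins, against 64.0 RPKM in vehicle veins (log2 fold change -0.34). Etfa and Etfb had the highest RPKM of all members in both groups, and their ratio averaged 1.03 ± 0.0205 in MSC veins, against 1.05 ± 0.111 across vehicle veins (SD, n = 4 each).

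At the entry of branched-chain breakdown, all 5 members were apart between groups and lower in MSC veins, a pattern of 4.17% of all genes tested from which, as above, nothing is read. Dbt, the core acyltransferase subunit of the keto acid dehydrogenase, was at 4.85, 5.82, 6.35 and 4.40 RPKM in MSC veins, against 8.55, 11.8, 9.39 and 10.1 RPKM in vehicle veins. It fell to 53.9% of the vehicle mean in MSC veins (log2 fold change -0.79, SE 0.12, limma adjusted p = 0.0496), lower in 4 of 4 MSC samples than in any vehicle sample. This call stood at the threshold: it was made in 6 of 20 other settings, with adjusted p between 0.0218 and 0.889. Leaving out any 1 sample other than MSC 3 ended it, at adjusted p of 0.17, 0.0799 and 0.12 without MSC 1, 2 and 4 and of 0.0615, 0.135, 0.0933 and 0.124 without vehicle 1 to 4. Bckdhb, the beta part of the decarboxylase, was at 5.90, 7.44, 9.38 and 6.24 RPKM in MSC veins, against 11.2, 14.5, 11.5 and 14.5 RPKM in vehicle veins. MSC 3 was the highest MSC sample and still below all vehicle samples (log2 fold change -0.77, SE 0.14, limma adjusted p = 0.0609).

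The alpha part of the decarboxylase, Bckdha, averaged 11.3 ± 2.33 RPKM in MSC veins, against 15.8 ± 1.73 RPKM across vehicle veins (SD, n = 4 each; fitted log2 fold change -0.47), and Bcat2, the mitochondrial transaminase, averaged 13.9 ± 2.35 RPKM in MSC veins, against 23.0 ± 4.40 RPKM across vehicle veins (log2 fold change -0.69). Dld, the dihydrolipoamide dehydrogenase that this complex shares with those of pyruvate and 2-oxoglutarate, averaged 33.7 ± 2.26 RPKM in MSC veins, against 43.0 ± 3.67 RPKM across vehicle veins, with the smallest log2 fold change of the step (-0.34). Dld was also the most abundant gene of the complex per kilobase. Both regulators overlapped between groups. Ppm1k, the activating phosphatase, was at 1.84, 2.04, 2.29 and 2.13 RPKM in MSC veins, against 2.08, 4.02, 2.63 and 3.22 RPKM in vehicle veins. Vehicle 1 lay within the MSC range (log2 fold change -0.35, SE 0.14, limma adjusted p = 0.265). Bckdk, the inactivating kinase, singled out after its values were seen as the 1 member above 0, was at 11.4, 12.7, 12.7 and 10.7 RPKM in MSC veins, against 10.1, 9.19, 11.0 and 11.0 RPKM in vehicle veins. MSC 4 lay below vehicle 3 and vehicle 4, and the log2 fold change of 0.19 (SE 0.09) did not pass (limma adjusted p = 0.335). The ratio of Bckdk to Dbt RPKM, a pair picked after the values were seen, was 2.35, 2.19, 1.99 and 2.42 in MSC veins, against 1.18, 0.781, 1.17 and 1.09 in vehicle veins, without overlap. The ratio of Bckdk to Ppm1k did not overlap either, with means of 5.74 in MSC veins and 3.68 in vehicle veins.

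**Figure D2:**
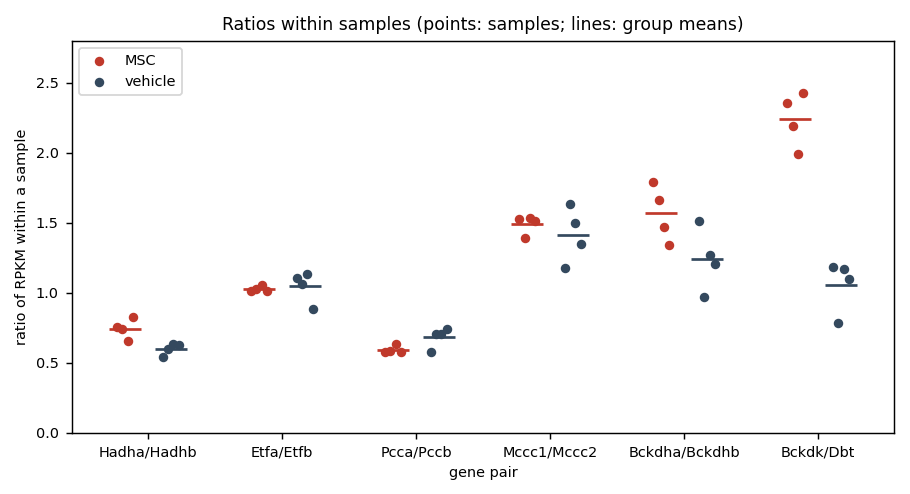
Ratios of RPKM between 2 members within each sample, with MSC samples left of vehicle samples; points are samples and lines are group means. The Hadha/Hadhb and Bckdk/Dbt ratios do not overlap between groups, with means of 0.743 in MSC veins and 0.599 in vehicle veins for Hadha/Hadhb and of 2.24 in MSC veins and 1.06 in vehicle veins for Bckdk/Dbt, whereas the other 4 pairs of subunits overlap.

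In the leucine arm, Mccc2, the smaller subunit of methylcrotonyl-CoA carboxylase, was at 3.39, 5.67, 6.09 and 3.13 RPKM in MSC veins, against 7.04, 9.42, 9.40 and 13.0 RPKM in vehicle veins. MSC 1 and MSC 4 lay lowest and the groups did not overlap (log2 fold change -0.96, SE 0.22, limma adjusted p = 0.0944). Ivd, the isovaleryl-CoA dehydrogenase that precedes it, was at 9.75, 12.4, 17.0 and 9.54 RPKM in MSC veins, against 17.7, 22.5, 18.3 and 24.0 RPKM in vehicle veins. Here too MSC 3 was the sample closest to the vehicle group (log2 fold change -0.74, SE 0.18, limma adjusted p = 0.107). Mccc1, the biotin-carrying subunit, averaged 6.79 ± 2.20 RPKM in MSC veins, against 13.8 ± 3.95 RPKM across vehicle veins (SD, n = 4 each; fitted log2 fold change -0.92, SE 0.25), and vehicle 1 lay within the MSC range. Auh, the next hydratase, averaged 7.92 RPKM in MSC veins, against 9.57 RPKM in vehicle veins (log2 fold change -0.26), with overlapping groups. The Mccc1 to Mccc2 ratio was 1.49 ± 0.0678 in MSC veins, against 1.41 ± 0.198 across vehicle veins (SD, n = 4 each), with overlapping groups.

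The isoleucine and valine arms held the member farthest below 0. Aldh6a1, the methylmalonate semialdehyde dehydrogenase at the end of the valine arm, was at 6.53, 14.5, 21.2 and 5.41 RPKM in MSC veins, against 29.8, 44.0, 27.8 and 42.3 RPKM in vehicle veins. MSC 1 and MSC 4 stood far below MSC 2 and MSC 3, and all 4 lay below the vehicle samples. The MSC mean was 33.1% of the vehicle mean, but the spread was wide and the gene did not pass (log2 fold change -1.68, SE 0.37, limma adjusted p = 0.0892). Acadsb, the short and branched-chain acyl-CoA dehydrogenase, was at 15.2, 16.3, 16.2 and 12.8 RPKM in MSC veins, against 21.2, 23.5, 20.02 and 20.4 RPKM in vehicle veins. Its groups were apart, with a smaller spread than that of Aldh6a1 (log2 fold change -0.47, SE 0.10, limma adjusted p = 0.0757). Hibadh, the hydroxyisobutyrate dehydrogenase of the valine arm, averaged 19.9 ± 2.50 RPKM in MSC veins, against 28.7 ± 3.56 RPKM across vehicle veins (SD, n = 4 each; fitted log2 fold change -0.51), also apart. Hibch, the hydrolase before it, averaged 8.94 ± 2.35 RPKM in MSC veins, against 16.8 ± 4.67 RPKM across vehicle veins (log2 fold change -0.83), with vehicle 1 inside the MSC range. Acad8, the isobutyryl-CoA dehydrogenase, averaged 6.66 RPKM in MSC veins, against 7.24 RPKM in vehicle veins (log2 fold change -0.11) and Hsd17b10, which acts in the isoleucine arm, averaged 27.9 RPKM in MSC veins, against 32.9 RPKM in vehicle veins (log2 fold change -0.22), both overlapping.

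Propionyl-CoA from isoleucine and valine is carboxylated, epimerised and rearranged to succinyl-CoA. Pccb, the beta subunit of the carboxylase, was at 10.8, 12.3, 14.1 and 10.2 RPKM in MSC veins, against 14.7, 15.7, 14.8 and 16.9 RPKM in vehicle veins. The 4 MSC samples all lay below the vehicle samples (log2 fold change -0.37, SE 0.10, limma adjusted p = 0.140). Pcca, the alpha subunit, was at 6.24, 7.18, 8.86 and 5.86 RPKM in MSC veins, against 8.45, 11.1, 10.4 and 12.5 RPKM in vehicle veins. MSC 3 lay above vehicle 1, so these groups overlapped (log2 fold change -0.53, SE 0.14, limma adjusted p = 0.125). Mut, the mutase that depends on vitamin B12, averaged 8.33 RPKM in MSC veins, against 11.9 RPKM in vehicle veins (log2 fold change -0.46), and Mcee, the epimerase, averaged 12.2 ± 1.34 RPKM in MSC veins, against 12.3 ± 1.48 RPKM across vehicle veins (SD, n = 4 each; fitted log2 fold change -0.01, SE 0.11).

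At the end of the routes stand enzymes that also handle ketone bodies. Acat1, the acetoacetyl-CoA thiolase, was at 20.3, 19.6, 23.2 and 18.2 RPKM in MSC veins, against 21.1, 24.6, 23.7 and 22.0 RPKM in vehicle veins. The groups overlapped (log2 fold change -0.16, SE 0.09, limma adjusted p = 0.415). Oxct1, which activates acetoacetate outside the liver, averaged 37.7 ± 2.89 RPKM in MSC veins, against 38.4 ± 8.06 RPKM across vehicle veins (SD, n = 4 each; fitted log2 fold change -0.01, SE 0.14). Oxct1 was the fourth most abundant member per kilobase by mean RPKM in MSC veins and did not rank as high in vehicle veins, where Acadl, Dld, Acadm and Echs1 were above it as well.

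**Figure D3:**
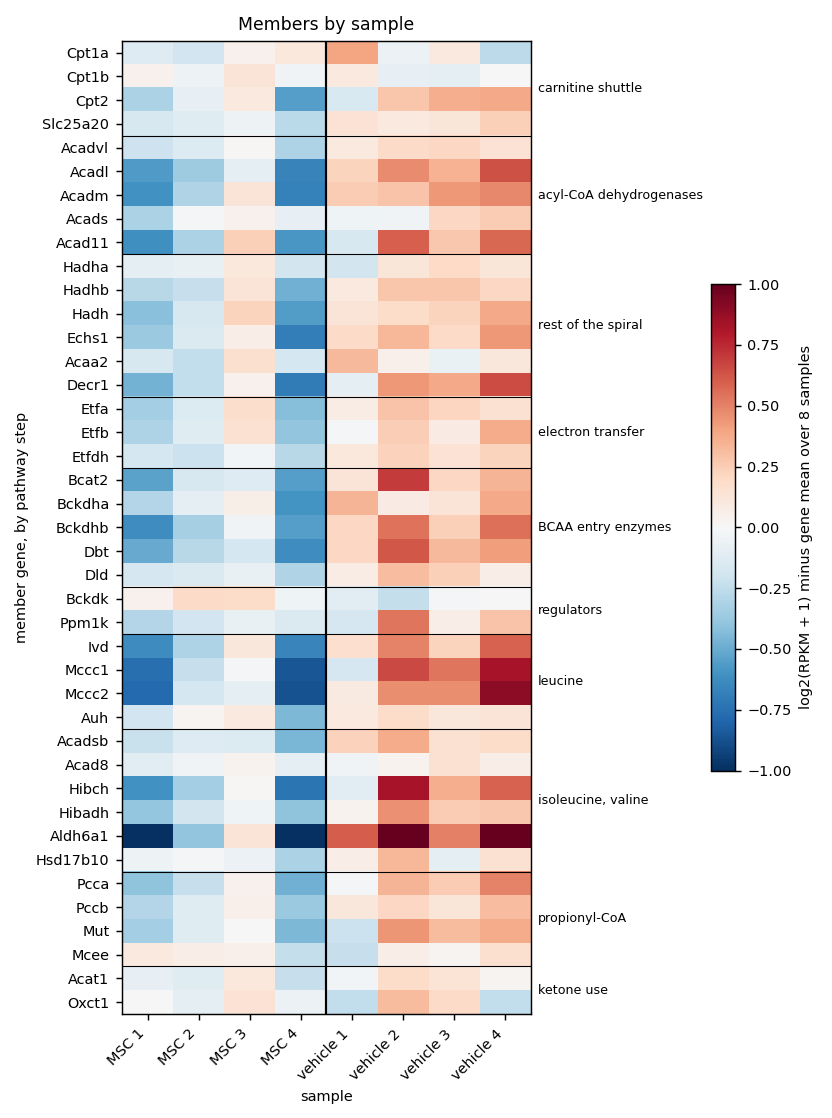
Each member's log2(RPKM + 1) minus its mean over the 8 samples, with the 4 MSC samples left of the 4 vehicle samples and members grouped by pathway step. The colour scale ends at 1 in either direction, and Aldh6a1 exceeds it in some samples. MSC 3 has the highest value of the MSC samples in 35 of the 40 members tested and MSC 4 the lowest in 32, and vehicle 1 has the lowest of the vehicle samples in 30.

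Summed by step, the leucine arm stood at 31.5 ± 8.44 RPKM in MSC veins, against 53.7 ± 9.24 RPKM across vehicle veins, and the isoleucine and valine arms at 90.4 ± 15.6 RPKM in MSC veins, against 143 ± 20.4 RPKM across vehicle veins. The acyl-CoA dehydrogenases of beta-oxidation stood at 104 ± 19.1 RPKM in MSC veins, against 161 ± 13.7 RPKM across vehicle veins, and the carnitine shuttle at 53.2 ± 3.8 RPKM in MSC veins, against 62.9 ± 3.58 RPKM across vehicle veins (SD, n = 4 each). The branched-chain transaminase and keto acid dehydrogenase stood at 71.4 ± 8.99 RPKM in MSC veins, against 105 ± 8.81 RPKM across vehicle veins. These 5 sums did not overlap between groups, and those of the other 5 steps did. Among the overlapping sums, the rest of the cycle ran from 133 to 198 RPKM in MSC veins and 196 to 224 RPKM in vehicle veins, the flavoprotein chain from 101 to 147 RPKM in MSC veins and 138 to 161 RPKM in vehicle veins, and the propionyl-CoA step from 33.2 to 45.4 RPKM in MSC veins and 41.7 to 56.2 RPKM in vehicle veins. Both regulators together ran from 12.8 to 14.9 RPKM in MSC veins and 12.2 to 14.2 RPKM in vehicle veins, and ketone body use from 54.3 to 65.0 RPKM in MSC veins and 52.6 to 71.9 RPKM in vehicle veins. Over the major routes of the module, the median log2 fold change was -0.36 for the 17 fatty acid oxidation genes tested and -0.47 for the 21 genes of branched-chain breakdown and its regulators. The difference between the routes was not tested.

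Most members shared the highest and the lowest MSC sample and the lowest vehicle sample, a comparison that does not use the difference between groups. MSC 3 was the highest MSC sample in 35 of the 40 members, against 25.8% of all genes tested, and MSC 4 was the lowest in 32, against 30.0%. Among vehicle samples, vehicle 1 was the lowest in 30 of the 40 members, against 38.3% of all genes. The highest place was divided, with vehicle 4 in 18 members and vehicle 2 in 16, against 14.7% and 18.2% of all genes. Members share the same libraries, so these counts describe 8 samples and not independent genes.

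Adipocyte markers shared much of the order of samples with the module. The adipocyte sum ran in the order MSC 3, 2, 1 and 4 from high to low, which is also the order of the summed members. MSC 3 and then MSC 2 were also highest in the endothelial sum, at 363, 530, 595 and 376 RPKM in MSC 1 to 4. The same held for recovered reads, at 29.9, 35.1, 38.2 and 32.5 mega-reads. In both of these MSC 4 lay above MSC 1, so only the upper places of the order were shared beyond fat markers. MSC 3 was highest and MSC 2 second in 30 of the 40 members, against 16.5% of all genes tested. Among vehicle samples the adipocyte and member sums were lowest in vehicle 1, where recovered reads were highest. Vehicle 4 had the highest adipocyte sum and vehicle 2 the highest member sum. Of the 15 adipocyte markers, 12 were apart between groups and lower in MSC veins, a pattern of 4.17% of all genes tested. Nothing is read from this count either, since the list was chosen with earlier results of these data known. Among the 12 was Adipoq, which encodes adiponectin, at 28.1, 117, 154 and 17.5 RPKM in MSC veins, against 171, 279, 224 and 379 RPKM in vehicle veins. Lep, which encodes leptin, was lowest of the list by mean RPKM in both groups, at 0.271, 0.622, 2.45 and 0.622 RPKM in MSC veins, against 0.997, 1.65, 1.01 and 1.25 RPKM in vehicle veins, with overlapping groups. The defining brown fat gene Ucp1, a proton channel of the inner membrane, was at 0.119, 0.511, 0.960 and 0.135 RPKM in MSC veins, against 1.12, 1.09, 1.37 and 5.69 RPKM in vehicle veins. The brown adipocyte list of 14 genes, which holds the member Cpt1b, summed to 24.5 ± 11.4 RPKM in MSC veins, against 23.1 ± 3.82 RPKM across vehicle veins (SD, n = 4 each) and overlapped. Its largest means over all samples were those of Cox8b, Cox7a1 and Fabp3 (7.24, 5.39 and 4.25 RPKM). Like the skeletal muscle sum, these genes were highest in MSC 1 and lowest in MSC 4 among MSC samples, so the sum does not follow Ucp1. Within the list Ucp1 and Otop1 were apart and lower in MSC veins, and Kng2 was apart and higher. Otop1 and Kng2 averaged 0.41 and 0.756 RPKM over all samples, below the level asked for testing. Of all genes tested, 4.17% were apart and lower and 5.61% apart and higher. The sum of 8 macrophage markers ran from 3095 to 5146 RPKM in MSC veins and 2449 to 3282 RPKM in vehicle veins, also overlapping, and its part in the result was not tested.

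**Figure D4:**
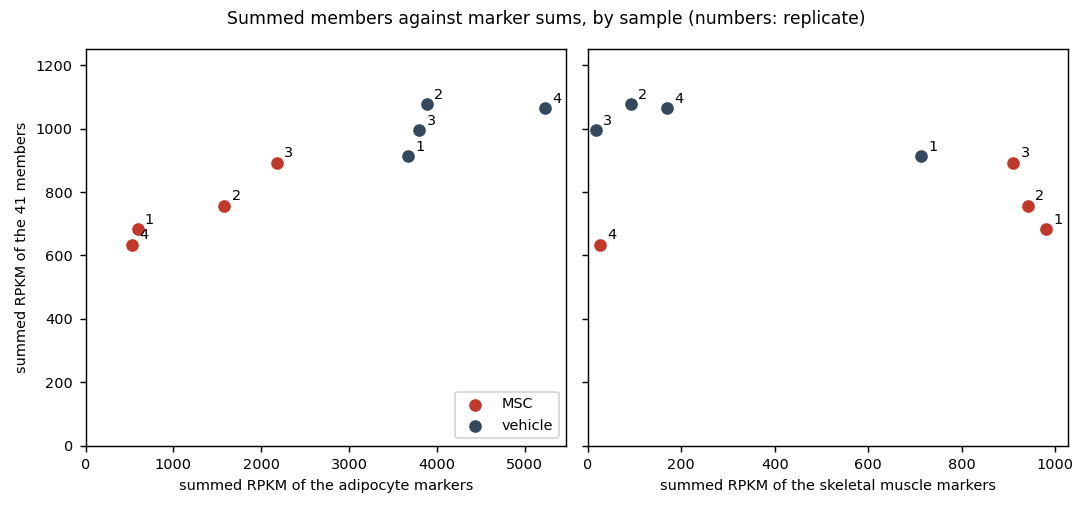
Summed RPKM of the 41 members against summed RPKM of 15 adipocyte markers (left) and of 20 skeletal muscle markers (right); each point is a sample, numbered by replicate, with MSC and vehicle samples in different colours. Member sums lie between 633 and 892 RPKM in MSC samples and between 913 and 1076 RPKM in vehicle samples, and MSC samples lie low on the adipocyte axis in the same order as on the member axis, while the muscle axis mixes the groups.

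When the mean log2(RPKM + 1) of the adipocyte markers entered limma as a covariate, the median log2 fold change of the members was -0.073 and 27 of the 40 were below 0, with 0 called (lowest adjusted p = 0.889) and a median of 0.09 over all genes. Adipocyte scores lay between 3.49 and 5.52 in MSC samples and between 5.90 and 6.45 in vehicle samples, so this fit compares groups at a score that neither shares. Dbt stood at -0.43 (SE 0.16) in that fit, Acadl at -0.37 (SE 0.15) and Bckdk at 0.37 (SE 0.14). Aldh6a1 stood at -0.20 (SE 0.20). With the skeletal muscle score in its place the members' median was -0.44, and 38 were below 0. The part of fat content in the difference between the groups was not tested beyond these values.

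**Figure D5:**
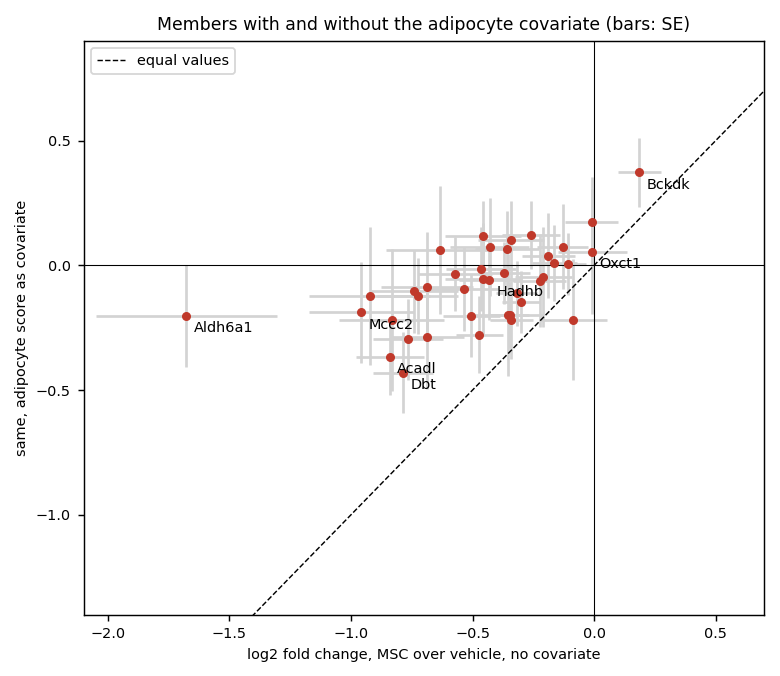
Log2 fold change of MSC over vehicle for the 40 members tested, without a covariate (horizontal axis) and after adding the adipocyte score to the fit (vertical axis), on the log2(RPKM + 1) scale; bars are limma's SE and the dashed line marks equal values. With the covariate 36 of the 40 members are closer to 0, Aldh6a1 goes to -0.20, Dbt to -0.43 and Bckdk to 0.37.

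Of 25 other genes tied to these pathways, 23 were tested: 17 were below 0 and none was called in limma (5 lower and 2 higher at an unadjusted p under 0.05), and the median log2 fold change was -0.12. Among all genes tested 40.5% were below 0, and 6.36% were lower and 10.1% higher at that level. Acacb, the acetyl-CoA carboxylase whose product malonyl-CoA inhibits Cpt1, was at 1.43, 3.05, 4.18 and 1.09 RPKM in MSC veins, against 9.998, 7.63, 5.93 and 4.93 RPKM in vehicle veins. The groups were apart (log2 fold change -1.30, SE 0.30, limma adjusted p = 0.0964). Crat, the carnitine acetyltransferase, was at 8.25, 11.0, 12.9 and 7.88 RPKM in MSC veins, against 13.6, 15.7, 13.9 and 17.4 RPKM in vehicle veins, also apart (log2 fold change -0.57, SE 0.15, limma adjusted p = 0.125). Acsf2, an acyl-CoA synthetase of mitochondria, was at 2.7, 3.78, 4.44 and 3.58 RPKM in MSC veins, against 4.50, 4.62, 5.70 and 7.03 RPKM in vehicle veins, apart by a narrow margin (log2 fold change -0.48, SE 0.15, limma adjusted p = 0.173). Named after their values were seen, the cytosolic transaminase Bcat1 had a log2 fold change of 0.42 and Slc7a5, the branched-chain amino acid transporter of the cell surface, had one of 0.45, with overlapping groups and no call (limma adjusted p = 0.252 and 0.218). The ratio of Bcat2, the mitochondrial transaminase, to Bcat1 averaged 2.42 ± 0.856 in MSC veins, against 5.67 ± 1.58 across vehicle veins (SD, n = 4 each), with overlapping groups.

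Among 15 genes that regulate fatty acid oxidation or report on it, 11 were tested: 8 were below 0 and none was called in limma (6 lower and 0 higher at an unadjusted p under 0.05), beside the same shares of all genes, 40.5% below 0, 6.36% lower and 10.1% higher. Those above 0 were Ppard (log2 fold change 0.17), Esrra (0.12) and Ucp2 (0.01). Esrra was apart and higher in MSC veins by a narrow margin, and the groups overlapped for Ppard and Ucp2. Klf15, a transcription factor known to act on amino acid and lipid breakdown, was at 0.715, 1.77, 2.29 and 0.456 RPKM in MSC veins, against 5.63, 5.35, 3.51 and 5.22 RPKM in vehicle veins. The groups were apart (log2 fold change -1.42, SE 0.26, limma adjusted p = 0.0572). Nrip1, a nuclear receptor corepressor, was at 4.78, 6.94, 6.01 and 4.92 RPKM in MSC veins, against 8.55, 8.01, 8.18 and 9.16 RPKM in vehicle veins, also apart (log2 fold change -0.52, SE 0.11, limma adjusted p = 0.0813). Pparg, the nuclear receptor that drives fat cell formation, was at 4.40, 9.75, 14.1 and 4.82 RPKM in MSC veins, against 12.2, 21.3, 19.2 and 16.5 RPKM in vehicle veins, with MSC 3 above vehicle 1 (log2 fold change -1.09, SE 0.32, limma adjusted p = 0.155). Ppara, the receptor best known for inducing fatty acid oxidation, was at 0.150, 0.298, 0.704 and 0.139 RPKM in MSC veins, against 0.302, 0.569, 0.429 and 0.650 RPKM in vehicle veins, below the level asked for testing, as was its coactivator Ppargc1a, at 0.181, 0.265, 0.469 and 0.106 RPKM in MSC veins, against 0.413, 0.311, 0.441 and 0.879 RPKM in vehicle veins.

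In the GENCODE annotation of GRCm38, the assembly behind mm10, all members are protein-coding genes. Dbt lies at chr3:116513070-116549981, Aldh6a1 at chr12:84430717-84451004, Acadl at chr1:66830839-66863277, Acadm at chr3:153922357-153944632, Bckdk at chr7:127904082-127910221, Hadha at chr5:30118304-30155162 and Hadhb at chr5:30155248-30184593. All 41 members were on the chromosome the deposited table gives. Exons of 12 members overlap another gene on the opposite strand: Acadvl, Acad11, Hadha, Echs1, Etfdh, Bcat2, Bckdha, Mccc1, Aldh6a1, Pcca, Mut and Oxct1. Those of 4 overlap another gene on the same strand, namely Cpt1b, Acad11, Etfb and Hibadh. Reads of such pairs could be counted for either gene, so these values are uncertain to that extent.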

How the data were processed

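RNA of the 8 samples was sequenced from TruSeq V2 libraries of 0.5 µg total RNA, per the labels' protocols, with mm10 as the build in the submitters' processing notes. Aligner, counter, annotation and strand setting were not given in the sources used here. RPKM values per gene and sample are those the authors deposited. Members and lists were chosen with earlier results of these data known. On log2(RPKM + 1), limma 3.58.1 in R 4.3.3 with a mean-variance trend tested MSC against vehicle on 12129 genes that averaged 1 RPKM or more, 2-sided, with Benjamini-Hochberg adjustment over all of them and a threshold of 0.05, after a check on simulated data. Such fold changes understate those of low genes. Whole reads, recovered within 0.001 reads from the RPKM steps for all 143006 values above 0, gave the depth. These include all values of the 16164 genes above 0 in every sample. A common factor in all reads of a gene would make the recovered reads too low. Values in every sample are printed for the 2 members of each step with the smallest unadjusted p (1 in steps of 2), for called members and, of the 2 other lists, the 3 genes with the smallest p; Cpt1b, as the untested member, Ppara, Ppargc1a, Adipoq, Lep, Ucp1 and the genes marked in the text were added after their values were seen. Alternatives covered the pseudocount, filter, scaling, replicate block, weights, trend, each sample left out, voom and 2 covariates.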

Additional observations from a re-analysis of the deposited data

Results flagged for a closer look

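Among 132 groups of 4 samples, made of each member and each summed list in either group, 5 held a sample far from the other 3, where chance gives about 1 in 20. Hsd17b10 was at 24.0 RPKM in MSC 4, against 28.9 to 29.7 RPKM in the other MSC samples. Mcee was at 10.2 RPKM in MSC 4, against 12.6 to 13.1 RPKM in the others. The skeletal muscle sum was 25.7 RPKM in MSC 4, against 910.1 to 979.6 RPKM in the other MSC samples. The adipocyte sum was 5233 RPKM in vehicle 4, against 3675 to 3883 RPKM in the other vehicle samples. The sum of 6 hepatocyte markers was 0.463 RPKM in vehicle 2, against 0.0517 to 0.0686 RPKM in the others.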

How the results depend on the processing

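Depth was low for Cpt1b alone among the members, and the number of calls moved with the processing. Members called in limma numbered 1 as reported; 6 with quantile normalization, 3 with median scaling, 2 with sample weights, 2 with a filter at a mean of 5 RPKM, 0 to 7 with 1 sample left out (7 without MSC 3, otherwise 0), and 0 with a pseudocount of 0.1 or 0.5 RPKM, no filter, no variance trend, the adipocyte or the skeletal muscle covariate. Over all genes 28 were called as reported; 10 with a pseudocount of 0.1 RPKM, 1 with no filter, 129 with quantile normalization, 94 with median scaling, 73 with sample weights, 69 with the skeletal muscle covariate, 0 with the adipocyte covariate (639 at an unadjusted p under 0.05), and 0 to 170 with 1 sample left out. The causes of these shifts were not tested. Across the 18 alternatives without a covariate, 37 to 39 members were below 0 and their median log2 fold change lay between -0.52 and -0.34; the adipocyte covariate gave -0.073. Of 799 values of single members under alternatives, 36 moved by more than the spread between replicates, all with that covariate and Dbt among them, and Dbt lost its call in 14 of its 20 alternatives. Voom on recovered reads called 1 member, Dbt (log2 fold change -0.92, adjusted p = 0.0466).

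Titles number samples 1 to 4 in both groups. With these numbers as a replicate block, 0 members and 0 of all genes were called (1768 genes at an unadjusted p under 0.05). The main fit had no block by plan, since these numbers come from titles only. Deviations of same-numbered samples correlated at 0.143, -0.00282, -0.332 and -0.122 across genes. Of the MSC samples, only MSC 1 correlated best with the vehicle sample of its own number.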

Other observations

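Named after their values were seen, 2 pyruvate dehydrogenase kinases, enzymes that restrain the use of pyruvate and so stand beside fatty acid oxidation, differed in pattern. Pdk2 was at 4.41, 6.22, 7.12 and 3.07 RPKM in MSC veins, against 8.04, 8.31, 7.48 and 9.23 RPKM in vehicle veins. All 4 MSC samples lay below the vehicle samples, without passing (log2 fold change -0.63, SE 0.19, limma adjusted p = 0.17). Pdk4 was at 4.08, 18.6, 38.4 and 4.23 RPKM in MSC veins, against 31.1, 19.4, 17.1 and 16.7 RPKM in vehicle veins. MSC 3 was the highest of the 8 samples and MSC 1 and MSC 4 the lowest (log2 fold change -0.84, SE 0.61, limma adjusted p = 0.532).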
